A study of Arabidopsis thaliana with 8 samples.

Results

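The genes described here are 4 of the 5 members of the SLAC family of anion channels, SLAC1 (AT1G12480), SLAH1 (AT1G62280), SLAH2 (AT4G27970) and SLAH3 (AT5G24030), together with the rapid anion channel gene ALMT12 (AT4G17970) and the nitrate exchanger gene CLC-A (AT5G40890). They were taken by gene identifier from a list of chloride and nitrate transport genes, and are 6 of the 32678 genes in the count tables. Whole plants of 4 Arabidopsis thaliana lines were grown at 75 or 0 mM NaCl, and each line gave 1 RNA library per salt level. T43-11 and T31-5 are labelled as expressing a fusion of 3F with VP16 that makes plants tolerant of salinity. The empty vector control expresses VP16 alone, a viral activation domain, and Col-0 is the wild type. These last lines are called the control lines below. The comparisons ask how the 6 genes responded to salt and whether their levels in the 3F-VP16 lines set these apart from the controls. Plant age, the length of the salt treatment, the promoter of the transgenes, the number of plants in a library and whether a line is a single clone are unknown from the labels.

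Anion channels of the plasma membrane let chloride, nitrate and malate leave the cell. In guard cells SLAC1, the slow anion channel, and ALMT12, the rapid one, release anions when stomata close, after abscisic acid has freed the kinase OST1 from PP2C phosphatases such as ABI1. SLAH3 is a nitrate-preferring channel of guard cells and roots, SLAH2 a nitrate-selective channel of the root stele, and SLAH1 a root stele subunit that assembles with SLAH3 in loading chloride into the xylem. CLC-A sits in the vacuole membrane and exchanges nitrate for protons, which stores nitrate in the vacuole.

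Reads on genes came to 13007480 to 22820814 per library. Levels are given as counts scaled to library size with TMM factors (CPM). Intervals on single libraries are exact 95% intervals from the read counts and cover counting error only. The library labelled T43-11 at 0 mM stood apart. Of the 6142 genes that passed the salt test in the other 3 lines, 95.9% were closer in it to the 75 mM mean than to the 0 mM mean of those lines. The 0 mM libraries of T31-5 and the empty vector line were nearly equal, with 1 of the 12067 genes averaging at least 10 CPM (0.00829%) differing 2-fold. The tables also hold an added row named T31, which no label explains. It had 67 and 106 reads in T31-5 and 68 and 83 in the empty vector line at 75 and 0 mM, so it did not tell these lines apart. In T43-11 it had 587 and 500 reads, and in Col-0 it had 0 at both salt levels. A second added row, T43, had 711 and 606 reads in T43-11 at 75 and 0 mM, 1 and 0 in T31-5 and 0 in the control lines. The salt response is given with and without T43-11, and also with T31-5 and the empty vector line summed where that changes a call.

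The 6 genes span a wide range of levels. Per kilobase of exon the mean over the 8 libraries was 76.2 CPM for CLC-A and 40.5 CPM for SLAH3. It was 6.05 CPM for ALMT12, 2.28 CPM for SLAH2, 1.76 CPM for SLAC1 and 0.290 CPM for SLAH1. SLAH1 reached the count filter of 0.468 CPM in 3 libraries, the 0 mM libraries of T31-5, the empty vector line and Col-0, and the other 5 genes reached it in all 8. All 6 entered the tests.

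**Figure D1:**
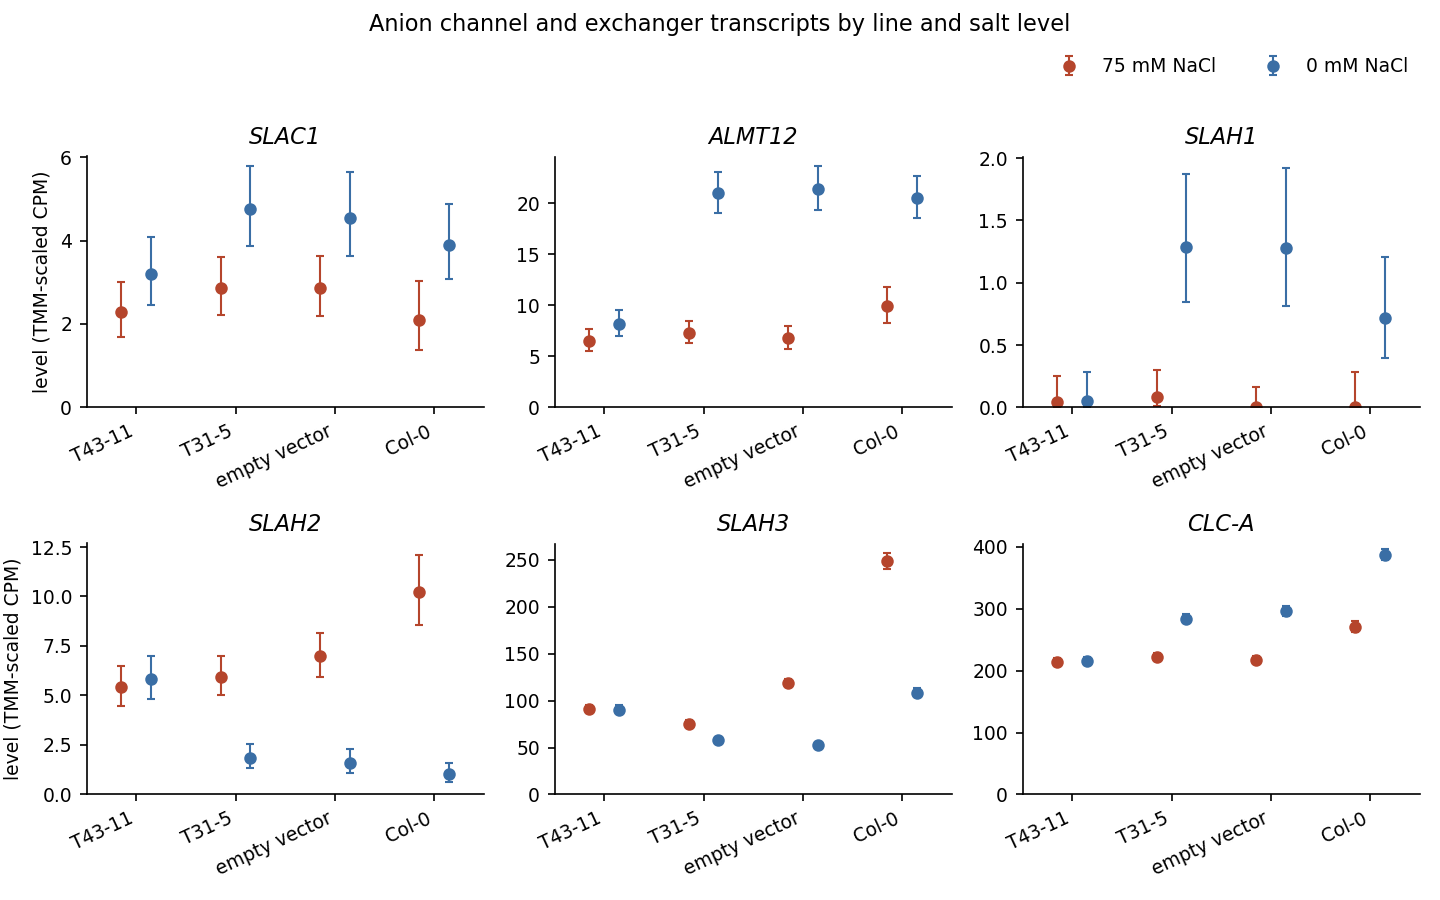
Level of each gene in TMM-scaled CPM (vertical axes, from 0) in the 4 lines (horizontal axes), at 75 mM NaCl (red) and 0 mM NaCl (blue), with 1 library per point and exact 95% counting intervals. SLAC1, ALMT12, SLAH1 and CLC-A are lower and SLAH2 and SLAH3 higher at 75 mM in T31-5, the empty vector line and Col-0. The points of T43-11 lie closer together than those of the other lines, as for CLC-A with 214 CPM (75 mM) and 215 CPM (0 mM). For SLAC1 they still differ, with 2.28 CPM (75 mM) and 3.20 CPM (0 mM).

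The 250 bases before the annotated start of each gene were read from the RefSeq TAIR10.1 assembly, and are shown for the members that fell most, SLAH1 and ALMT12, and for the one that rose most, SLAH2. They lie at chr1:23008611-23008860 on the minus strand for SLAH1, chr4:9975115-9975364 on the plus strand for ALMT12 and chr4:13920379-13920628 on the minus strand for SLAH2, and overlap no annotated gene. Capitals mark ACGTG or its reverse complement CACGT, the core of the abscisic acid response element.
SLAH1: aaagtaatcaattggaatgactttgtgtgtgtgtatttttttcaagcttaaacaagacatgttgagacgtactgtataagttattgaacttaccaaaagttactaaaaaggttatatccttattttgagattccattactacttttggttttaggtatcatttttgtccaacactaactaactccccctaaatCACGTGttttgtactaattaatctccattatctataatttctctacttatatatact
ALMT12: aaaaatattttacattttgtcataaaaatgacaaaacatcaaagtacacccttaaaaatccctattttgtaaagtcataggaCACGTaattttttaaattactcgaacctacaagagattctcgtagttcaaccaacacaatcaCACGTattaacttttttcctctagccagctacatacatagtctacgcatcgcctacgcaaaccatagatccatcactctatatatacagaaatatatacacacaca
SLAH2: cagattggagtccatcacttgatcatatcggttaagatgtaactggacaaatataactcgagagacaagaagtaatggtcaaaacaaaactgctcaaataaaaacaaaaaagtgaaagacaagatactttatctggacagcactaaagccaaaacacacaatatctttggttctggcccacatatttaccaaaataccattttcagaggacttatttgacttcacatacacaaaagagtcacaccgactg

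ACGTG was searched on both strands and occurs in 23.1% of the 26706 promoter windows of this length. SLAH1 holds it on both strands in the overlapping word CACGTG, 57 to 52 bases before the start. ALMT12 holds CACGT at 168 to 164 and at 106 to 102 bases before the start, and SLAH3 holds ACGTG at 22 to 18. The windows of SLAC1, SLAH2 and CLC-A do not hold these letters. SLAH2 holds CCGAC, the core of the cold and drought response element, at 7 to 3 bases before the start, which 11.9% of all windows hold on either strand. These matches are descriptions of sequence, and the members that hold ACGTG include 1 that rose and 2 that fell.

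SLAC1 and ALMT12 were lower with salt. ALMT12, which encodes the channel of the rapid anion current, lies on chromosome 4 at 9975365 to 9978023, plus strand (TAIR10.1). It had 6.56 CPM in T43-11, 7.32 CPM in T31-5, 6.80 CPM in the empty vector line and 9.90 CPM in Col-0 at 75 mM. At 0 mM it had 8.20 CPM in T43-11, 21.0 CPM in T31-5, 21.4 CPM in the empty vector line and 20.5 CPM in Col-0. The 0 mM libraries of the last 3 lines stand together at the top, and the other 5 libraries, T43-11 at 0 mM among them, lie well below them. In the 3 lines without T43-11 it averaged 8.0 ± 1.66 CPM at 75 mM and 21.0 ± 0.449 CPM at 0 mM (SD, n = 3 lines each). ALMT12 fell, with a log2 fold change of -1.43 ± 0.14 (SE; 2-sided quasi-likelihood test in edgeR, blocked by line, adjusted p = 0.00119).

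SLAC1, on chromosome 1 at 4257268 to 4259300, minus strand, gave few reads. At 75 mM it had 2.28 CPM in T43-11, 2.85 CPM in T31-5, 2.85 CPM in the empty vector line and 2.09 CPM in Col-0. Without salt its levels were 3.20 CPM in T43-11, 4.77 CPM in T31-5, 4.55 CPM in the empty vector line and 3.90 CPM in Col-0. Every 75 mM library lay below every 0 mM library, T43-11 included, and SLAC1 was the single member for which the salt levels did not overlap over all 4 lines, against 6.42% of all tested genes. From 27 to 100 reads stood behind these values, and no pair of neighbours in their order had separate 95% intervals. SLAC1 fell in the 3-line fit, with a log2 fold change of -0.78 ± 0.17 and an edgeR adjusted p of 0.0162. It did not pass without T31-5 (adjusted p = 0.0916), without the empty vector line (0.107) or with these lines summed as 1 (0.0788). It shares its position with AT1G12470 and AT1G04953 on the other strand, and whether reads were counted by strand is unknown, so reads of these genes cannot be told apart. In whole plants, fewer guard cells and less RNA per guard cell cannot be told apart either.

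The root channel subunit gene SLAH1 nearly dropped out of the 75 mM libraries. SLAH1, on chromosome 1 at 23007044 to 23008610, minus strand, had 1 read in T43-11, 2 in T31-5 and 0 in both the empty vector line and Col-0 at 75 mM. At 0 mM it had 1 read in T43-11, 27 in T31-5, 23 in the empty vector line and 14 in Col-0. The reads were thus almost all in the 0 mM libraries of the 3 lines, and T43-11 had 1 read at each salt level. Against a floor of 3 reads per library, the level at 75 mM was at least 9.71-fold lower than at 0 mM in the empty vector line and at least 3.1-fold lower in Col-0. These bounds leave out the counting error of the 0 mM reads, and with it the exact 95% intervals of the ratio of 75 to 0 mM reach up to 0.137 in the empty vector line and 0.454 in Col-0. Summed over the 3 lines there were 2 reads at 75 mM and 64 at 0 mM, a ratio of levels of 0.0305 (exact 95% interval 0.00361 to 0.115). The edgeR adjusted p of this fall was 0.00394, and the fitted log2 value of -4.92 depends on the prior count. SLAH1 entered the test only through the 0 mM libraries where it was high, so this p-value is not independent of the count filter. The gene SLAH4, the closest to SLAH1 by shared sequence with a run of 41 identical bases, had between 0.0513 and 1.09 CPM and could share some of its reads.

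SLAH2 and SLAH3, the nitrate channels, went the other way. SLAH2, on chromosome 4 at 13918165 to 13920378, minus strand, had 5.42 CPM in T43-11, 5.95 CPM in T31-5, 6.97 CPM in the empty vector line and 10.2 CPM in Col-0 at 75 mM. At 0 mM it had 5.82 CPM in T43-11, 1.86 CPM in T31-5, 1.61 CPM in the empty vector line and 1.03 CPM in Col-0. The 0 mM libraries of the last 3 lines are the lowest of the 8, and T43-11 at 0 mM sits among the 75 mM libraries. SLAH2 rose by a log2 value of 2.3 ± 0.32 in the 3-line fit, 4.92-fold (edgeR adjusted p = 0.00547). It passed in each alternative fit except the one without the empty vector line, where the adjusted p was 0.0521. In single lines its level at 75 mM was 0.930 times that at 0 mM in T43-11 (95% interval 0.713 to 1.21), 3.20 times in T31-5 (2.24 to 4.69), 4.33 times in the empty vector line (2.9 to 6.68) and 9.94 times in Col-0 (6.18 to 16.8).

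SLAH3, on chromosome 5 at 8118317 to 8122914, minus strand, was the most abundant SLAC gene. At 75 mM it had 90.9 CPM in T43-11, 75.3 CPM in T31-5, 118 CPM in the empty vector line and 248 CPM in Col-0. Without salt its levels were 90.5 CPM in T43-11, 58.1 CPM in T31-5, 52.5 CPM in the empty vector line and 108 CPM in Col-0. Each of the 3 lines was higher at 75 mM, but the salt levels overlapped between lines, with Col-0 at 0 mM above T31-5 at 75 mM. The ratio of 75 to 0 mM was 1.0 in T43-11 (95% interval 0.942 to 1.07), 1.30 in T31-5 (1.21 to 1.40), 2.26 in the empty vector line (2.1 to 2.43) and 2.29 in Col-0 (2.17 to 2.42). SLAH3 rose in the 3-line fit, with a log2 fold change of 0.90 ± 0.20 and an edgeR adjusted p of 0.0318. The call was lost without Col-0 (0.184), without the empty vector line (0.167) and without the pairing by line (0.151).

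CLC-A was the most abundant of the 6 and changed least. It lies on chromosome 5 at 16381314 to 16385424, minus strand, and overlaps AT5G40880 on the other strand. Whether reads were counted by strand is unknown, so reads of AT5G40880 cannot be told apart from those of CLC-A. For CLC-A the levels were as follows. At 75 mM CLC-A had 214 CPM in T43-11, 222 CPM in T31-5, 218 CPM in the empty vector line and 271 CPM in Col-0. At 0 mM it had 215 CPM in T43-11, 284 CPM in T31-5, 296 CPM in the empty vector line and 387 CPM in Col-0. The T43-11 libraries were the lowest 2 of the 8, and Col-0 was the highest line at each salt level. CLC-A fell in the 3-line fit, to 0.730 of its 0 mM level, with a log2 fold change of -0.45 ± 0.06 and an edgeR adjusted p of 0.00261. Without the pairing by line the adjusted p was 0.0578.

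In all, 2 members rose and 4 fell in the 3-line fit, 6 of 6 passing against 29.8% of 20585 genes tested. Of these, SLAH1 met the count filter only through the 0 mM libraries where it was high. Its call and its separate salt levels are therefore not independent of the filter. The share that passed among all genes was 14.4% in the higher and 15.4% in the lower direction. The median log2 fold change of the members was -0.62 and that of all genes tested 0.01. With SLAH1 at its bound the members' median is also -0.62, since SLAH1 is the lowest of the 6 either way and does not enter it. In 5 of the 6 the salt levels did not overlap over the 3 lines, against 44.3% of all genes tested, SLAH3 being the exception. With both T31-5 and the empty vector line summed as 1 line, 2 members rose and 3 fell. In that fit 2778 of the 20585 genes passed, 1215 higher and 1563 lower. Only ALMT12 and SLAH1 passed in each of the 8 alternative fits.

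With T43-11 kept in, 0 of the 6 passed over the 4 lines, as did 0% of all genes (edgeR, line as a block). The log2 fold changes were 1.63 ± 0.52 for SLAH2, 0.69 ± 0.22 for SLAH3, -0.33 ± 0.10 for CLC-A, -0.70 ± 0.15 for SLAC1 and -1.16 ± 0.22 for ALMT12, with edgeR adjusted p from 0.119 to 0.121. All 6 members had an unadjusted edgeR p under 0.05, against 29.2% of all genes tested, SLAH1 again with the limit set by the filter. DESeq2 with the same design passed SLAH2 (adjusted p = 0.00773), SLAH3 (0.0223), ALMT12 (0.00107) and CLC-A (0.0493). It passed 1791 of 20585 genes. SLAC1 did not pass in it (adjusted p = 0.0557), and SLAH1 was given no adjusted p.

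**Figure D2:**
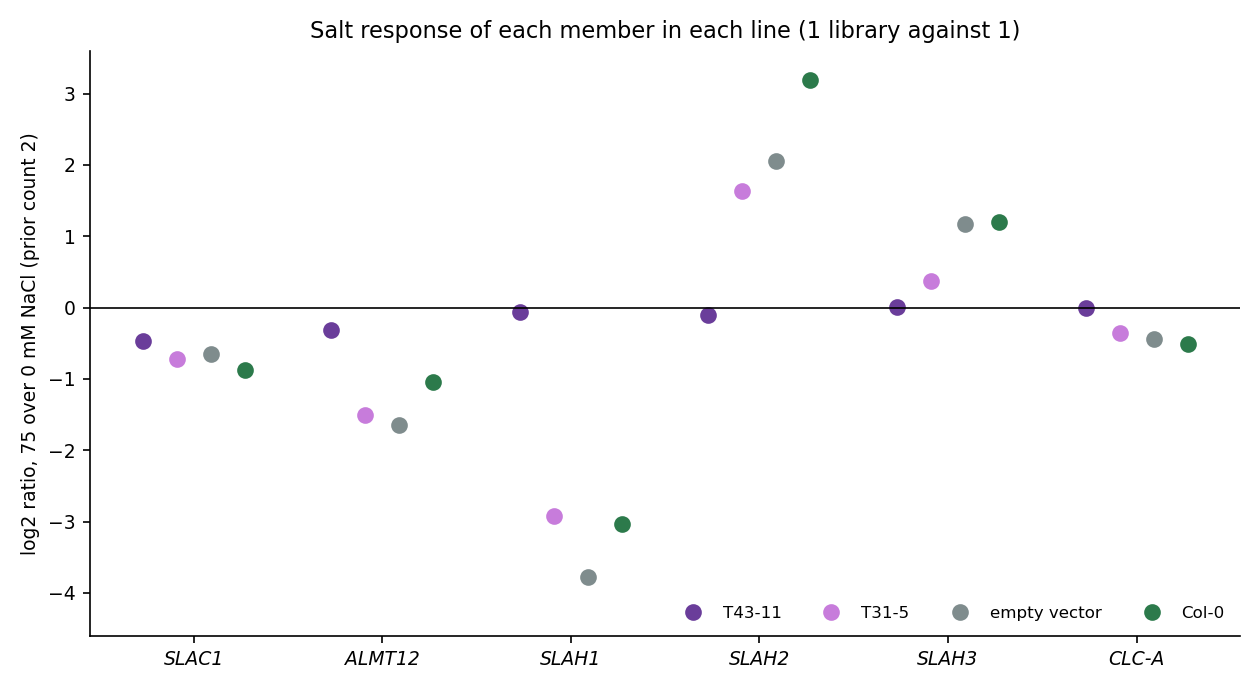
Log2 ratio of the 75 mM over the 0 mM library (vertical axis, prior count of 2) for the 6 genes (horizontal axis) in each line, 1 library against 1. The T43-11 points lie nearest 0 for every gene, at -0.01 for CLC-A and -0.47 for SLAC1, while the other 3 lines share a direction in each gene.

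The salt ratio of T43-11 was the closest to 1 of the 4 lines in all 6 genes. Among genes averaging 10 CPM or more, 0% changed 2-fold between its libraries, against 3.54% in T31-5, 3.97% in the empty vector line and 5.78% in Col-0. Of the 3 members at this level, ALMT12 changed 2-fold in T31-5, the empty vector line and Col-0, SLAH3 in the empty vector line and Col-0, and CLC-A in none. T43-11 at 0 mM was closer to the 75 mM mean of the other lines in 5 of the 6 members. That share was 95.9% over the 6142 genes that passed the 3-line salt fit, as all members did, and 78.3% over all genes tested. ALMT12 in that library differed by 0.05 from the 75 mM mean and by -1.35 from the 0 mM mean of the other lines on the log2 scale. SLAH3 was the exception, at -0.53 from the 75 mM mean and 0.39 from the 0 mM mean.

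The salt response of T43-11 was also tested against that of the other 3 lines, a comparison prompted by the position of its libraries. In it 0 of 6 members passed, against 2.43% of all genes tested, and 3 had an unadjusted edgeR p under 0.05, against 19.1%. The difference in log2 response was -2.42 ± 0.58 for SLAH2 (edgeR adjusted p = 0.104), 1.09 ± 0.28 for ALMT12 (0.11), 0.43 ± 0.12 for CLC-A (0.129), -0.91 ± 0.37 for SLAH3 (0.295) and 0.27 ± 0.35 for SLAC1 (0.727). With 1 of the other 3 lines left out, the difference ran from -2.78 to -1.95 for SLAH2 and from 0.97 to 1.30 for ALMT12. It ran from 0.42 to 0.47 for CLC-A, from -1.18 to -0.73 for SLAH3 and from 0.25 to 0.32 for SLAC1. The spread in this test comes from the other 3 lines alone, T43-11 being assumed to vary like them.

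The 3F-VP16 lines did not differ from the control lines in any member past the threshold. Over both salt levels, with counts summed per line, 0 of 6 passed and 0% of all genes (edgeR, 4.1% at an unadjusted p under 0.05). SLAH3 had the lowest unadjusted p of the 6, 0.0739, with a log2 fold change of -0.69 ± 0.31 (adjusted p = 0.7). ALMT12 had -0.49 ± 0.31, CLC-A -0.36 ± 0.18, SLAC1 -0.08 ± 0.24 and SLAH2 0.05 ± 0.21. DESeq2 passed 28 genes in this comparison, and 0 members.

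At 75 mM SLAH3 had the lowest fold change of the 5 members with more than a few reads. Its level was 90.9 CPM in T43-11 and 75.3 CPM in T31-5, against 118 CPM in the empty vector line and 248 CPM in Col-0. The 3F-VP16 lines were below both control lines, and Col-0 stood far above all 3 other lines. Over the empty vector line the ratio was 0.768 in T43-11 (95% interval 0.724 to 0.814) and 0.636 in T31-5 (0.599 to 0.675). Over Col-0 it was 0.366 in T43-11 (0.346 to 0.387) and 0.303 in T31-5 (0.286 to 0.321). The fitted log2 fold change was -1.14 ± 0.44 (edgeR unadjusted p = 0.0353, adjusted p = 0.999), and without Col-0 it was -0.50. The fits at 75 and at 0 mM have no block by line, so the libraries of a line count as independent in their shared spread. In 3 of the 6 members the classes did not overlap at 75 mM, SLAH1, SLAH2 and SLAH3, against 43.1% of all genes tested, SLAH1 on 3 reads in all. At an adjusted p of 0.05, 0% of all genes passed at this salt level (edgeR, 3.56% unadjusted).

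Without salt the member that differed most was SLAH2. It had 5.82 CPM in T43-11 and 1.86 CPM in T31-5, against 1.61 CPM in the empty vector line and 1.03 CPM in Col-0. T43-11 stood apart, and the 95% intervals of T31-5 and the empty vector line overlapped. Its log2 fold change was 1.54 ± 0.55 (edgeR unadjusted p = 0.0256, adjusted p = 0.587), and 0.51 without T43-11. CLC-A had 215 CPM in T43-11 and 284 CPM in T31-5, against 296 CPM in the empty vector line and 387 CPM in Col-0, a log2 fold change of -0.45 ± 0.19 (unadjusted p = 0.0494, adjusted p = 0.587 in edgeR). These were the 2 members whose classes did not overlap at 0 mM, against 34.1% of all genes tested. Over all genes 0% passed at 0 mM (edgeR, 5.3% unadjusted). ALMT12 had -0.52 ± 0.39, SLAH3 -0.11 ± 0.44 and SLAC1 -0.08 ± 0.29.

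**Figure D3:**
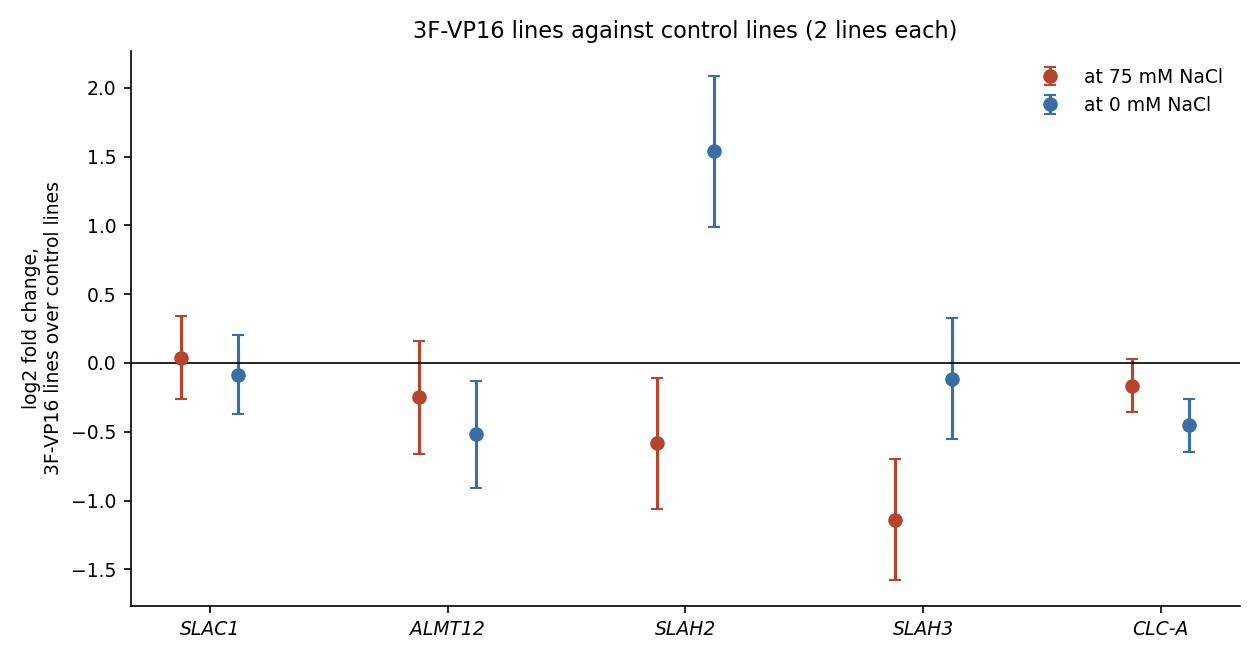
Log2 fold change of the 3F-VP16 lines over the control lines (vertical axis, bars are standard errors from edgeR) for 5 genes (horizontal axis) at 75 mM (red) and 0 mM NaCl (blue), 2 lines in each class. SLAH3 lies lowest at 75 mM, at -1.14, and SLAH2 highest at 0 mM, at 1.54, and 0 genes passed. SLAH1, with 3 reads over the 75 mM libraries, is left out.

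The salt response of SLAH3 had a lower fitted value in the 3F-VP16 lines, and the difference did not pass. The ratios of 75 to 0 mM were 1.0 for T43-11 and 1.30 for T31-5. They were 2.26 for the empty vector line and 2.29 for Col-0. The 3F-VP16 lines were both below the control lines, and the control lines were close to each other. The difference in log2 response was -1.0 ± 0.18, with an unadjusted edgeR p of 0.000951 and an adjusted p of 0.968. It was -0.83 without T43-11 and -1.18 without T31-5. The latter sets T43-11 alone against the control lines, and is the same fit as the T43-11 test without T31-5. SLAH2 had -1.96 ± 0.72 (unadjusted p = 0.0348), and -1.03 without T43-11. Of all genes 0% passed in this comparison (edgeR, 3.62% unadjusted).

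Among the other members of the SLAC, ALMT and CLC families, the nearest relative of CLC-A moved with it. CLC-B, a second nitrate exchanger of the vacuole membrane, had 24.9 CPM in T43-11, 27.5 CPM in T31-5, 32.6 CPM in the empty vector line and 43.1 CPM in Col-0 at 75 mM. Without salt its levels were 25.5 CPM in T43-11, 63.5 CPM in T31-5, 65.2 CPM in the empty vector line and 98.7 CPM in Col-0. The T43-11 libraries again stood with the 75 mM libraries. CLC-B fell, with a log2 fold change of -1.15 ± 0.07 (edgeR adjusted p = 0.000403). It was also the single gene of these families to pass in the test of T43-11 against the other lines, at 1.1 (adjusted p = 0.0304).

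Of 20 other family genes 15 were tested in the 3-line fit, and 3 rose, 3 fell and 9 did not pass, with a median of -0.03 against 0.01 for all genes. The 6 of 15 that passed stand against 29.8% of all genes tested. CLC-C, a chloride exchanger of the vacuole membrane, rose by 0.26 and ALMT9, a vacuolar chloride and malate channel of guard cells, by 0.46 on the log2 scale. ALMT1, which releases malate from roots, had -0.87 and AT4G00910 -1.22, both falling, and AT5G46600 rose by 1.6 (edgeR adjusted p from 0.0106 to 0.0473 for these 5). Both AT4G00910 and AT5G46600 are annotated as aluminium-activated malate transporter family proteins. At 75 mM AT5G46600 had 1.28 CPM in T31-5, 1.14 CPM in the empty vector line and 0.464 CPM in Col-0. At 0 mM it had 0.334, 0.333 and 0.257 CPM in the same order, so few reads stood behind its rise. Within these lines AT5G46600 met the count filter of 0.468 CPM only at 75 mM in T31-5 and the empty vector line, where it was high, a limit on its call. The T43-11 libraries met the filter at each salt level. None of the 3 rises passed in DESeq2, with T31-5 and the empty vector line summed, or with either of them left out. Of the falls, ALMT1 did not pass with the lines summed (adjusted p = 0.0601), without the empty vector line (0.206), without Col-0 (0.126) or without the pairing by line (0.444), and AT4G00910 did not pass without T31-5 (0.0641). CLC-D, CLC-E, CLC-F and CLC-G lay between -0.15 and 0.14 and did not pass. The closest sequence match to ALMT12 was AT5G46610, with a shared run of 62 bases, and it had at most 0.103 CPM in any library.

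**Figure D4:**
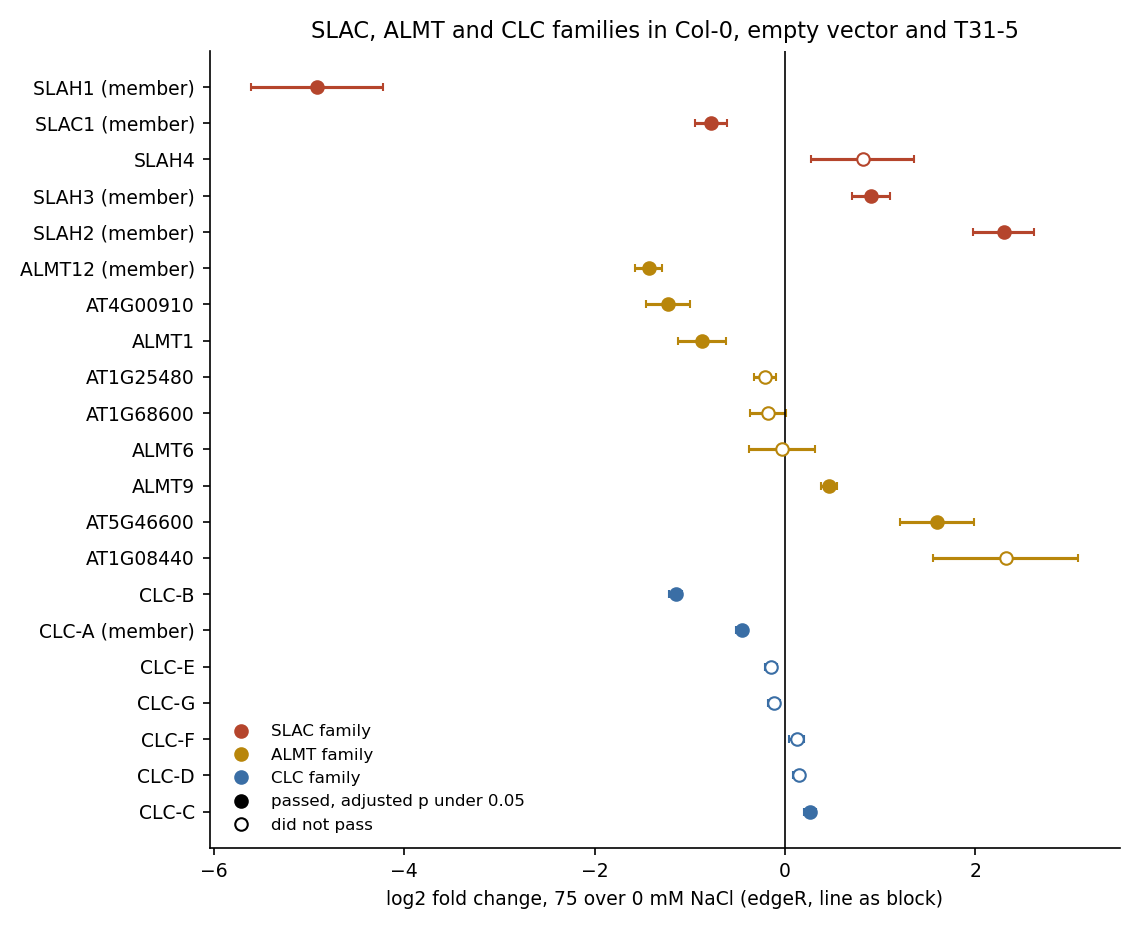
Log2 fold change of 75 over 0 mM NaCl (horizontal axis) with its standard error for the tested SLAC, ALMT and CLC family genes (rows) in T31-5, the empty vector line and Col-0, from edgeR with line as a block. Filled points passed at an adjusted p under 0.05. The SLAC genes spread from -4.92 for SLAH1 to 2.3 for SLAH2, and the CLC genes from -1.15 for CLC-B to 0.26 for CLC-C.

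Of 25 genes that act upstream of the channels 24 were tested, and 5 rose, 4 fell and 15 did not pass (median -0.08). The 9 of 24 that passed stand against 29.8% of all genes tested. OST1, the kinase that activates SLAC1 and ALMT12, fell by 0.38 ± 0.08 on the log2 scale (edgeR adjusted p = 0.015), while its relatives SNRK2.2 and SNRK2.3 rose by 0.74 and 0.54. With T31-5 and the empty vector line summed 4 rose and 2 fell, the calls of OST1 (adjusted p = 0.0645), HAB1 (0.0603) and CPK3 (0.0955) being lost. That fit passed 2778 of 20585 genes, 1215 higher and 1563 lower. The phosphatase genes ABI1 and PP2CA, whose products inhibit these kinases, rose by 0.52 and 0.49, whereas HAB1, of the same clade, fell by 0.33. CPK3, a calcium-dependent kinase that activates SLAC1, rose by 0.27. HT1, a kinase gene of the carbon dioxide response in guard cells, fell with a log2 value of -1.41 and MPK12, a guard cell kinase that inhibits HT1, with -1.0 (adjusted p = 0.00866 and 0.000982). CIPK23, CPK6, CPK21 and CPK23, which also act on these channels, had values from -0.13 to 0.11 and did not pass. Without the empty vector line 3 regulators rose and 2 fell, in a fit that passed 2056 of 20585 genes, 828 higher and 1228 lower.

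Among 26 other nitrate and chloride transporter genes 21 were tested, and 6 rose, 6 fell and 9 did not pass (median 0.07), 12 of 21 passing against 29.8% of all genes tested. NPF7.2, which takes nitrate back out of the xylem, had 34.9 CPM in T43-11, 35.2 CPM in T31-5, 61.7 CPM in the empty vector line and 94.95 CPM in Col-0 at 75 mM. At 0 mM it had 35.5 CPM in T43-11, 9.67 CPM in T31-5, 8.89 CPM in the empty vector line and 11.4 CPM in Col-0. As with SLAH2, the 0 mM libraries of the last 3 lines were the lowest and the T43-11 values were nearly equal. NPF7.2 rose by 2.56 ± 0.27 on the log2 scale (edgeR adjusted p = 0.00558), and NPF7.3, which loads nitrate into the xylem, fell with -0.98 ± 0.21 (adjusted p = 0.0313). NRT2.1, a high-affinity nitrate uptake gene, rose by 3.22 and its family member NRT2.6 by 2.73, both at most 5.79 CPM in any library. At 0 mM NRT2.1 had 0.429 CPM in T31-5, 0.167 CPM in the empty vector line and 0.359 CPM in Col-0. Within these 3 lines NRT2.1 met the count filter of 0.468 CPM only at 75 mM, where it was high, a limit on its call. The T43-11 libraries met the filter at each salt level. NRT3.1, the partner of NRT2.1, rose by 0.76, NPF2.13, which loads nitrate into the phloem, by 1.14, and the guard cell transporter gene ABCC5 by 0.22. The nitrate sensor and transporter gene NPF6.3 fell with -0.80, NPF1.2 with -0.52, the glucosinolate transporter genes NPF2.10 and NPF2.11 with -0.68 and -0.30 and the malate importer gene ABCB14 with -0.70. NAXT1, a nitrate efflux gene, at 0.04 and the cation chloride cotransporter gene CCC1 at 0.22 did not pass. With T31-5 and the empty vector line summed 5 rose and 4 fell, the calls of NPF7.3 (adjusted p = 0.0692), NPF2.11 (0.081) and ABCC5 (0.207) being lost. That fit passed 2778 of 20585 genes, 1215 higher and 1563 lower. Without the empty vector line 3 of these transporters rose and 1 fell, where 2056 of all genes passed, 828 higher and 1228 lower.

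Of 10 guard cell markers 0 rose, 6 fell and 4 did not pass in the 3-line fit, where 14.4% of all genes rose and 15.4% fell. The median log2 fold change was -0.70, against 0.01 for all genes. With T31-5 and the empty vector line summed 5 fell, FAMA being lost (adjusted p = 0.0711), and without the empty vector line 4 fell. Of all 20585 genes, 1563 fell in the summed fit and 1228 in the fit without the empty vector line. Without Col-0 6 fell and TGG1 rose (0.39, adjusted p = 0.000617), where 4044 of all genes fell and 3898 rose. KAT1, a potassium channel gene of guard cells, had 7.33 CPM in T43-11, 7.94 CPM in T31-5, 7.41 CPM in the empty vector line and 5.41 CPM in Col-0 at 75 mM. Without salt its levels were 7.73 CPM in T43-11, 16.4 CPM in T31-5, 18.05 CPM in the empty vector line and 13.5 CPM in Col-0. The libraries fall in the same 2 sets as for ALMT12. The log2 fold changes were -1.22 for KAT1, -1.0 for its partner KAT2, -1.72 for the stomatal factor gene MYB60, -0.41 for FAMA, which specifies guard cells, -1.41 for HT1 and -1.74 for AT1G22690, annotated as a gibberellin-regulated family protein (edgeR adjusted p from 0.00049 to 0.0283). CYP86A2 at -0.13, GORK at 0.11, TGG1 at 0.24 and MYB61 at 1.29 did not pass. In the T43-11 test MYB60, at 2.35, and AT1G22690, at 1.78, passed (edgeR adjusted p = 0.0287 each). The mean log2 CPM of the list was 3.40 to 3.85 at 75 mM and 3.74 to 4.28 at 0 mM, and its summed level, most of it TGG1, 1606 to 2625 CPM at 75 mM and 1658 to 2583 CPM at 0 mM. None of the 10 was at 0 in any library, and the part of these markers in the falls of SLAC1 and ALMT12 was not tested.

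**Figure D5:**
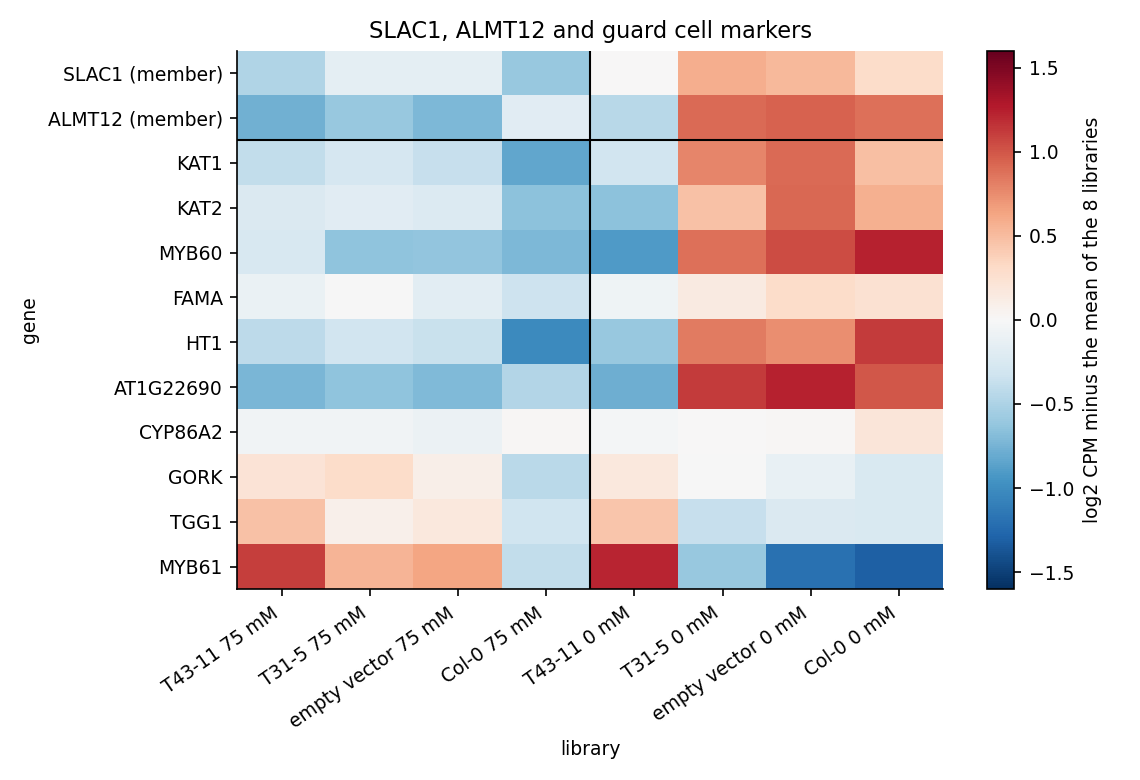
Log2 CPM minus the mean over the 8 libraries (colour, red higher and blue lower) for SLAC1, ALMT12 and 10 guard cell markers (rows) in the 75 mM libraries (left 4 columns) and the 0 mM libraries (right 4 columns). The 0 mM libraries of T31-5, the empty vector line and Col-0 are red for SLAC1, ALMT12 and KAT1 to AT1G22690, and T43-11 at 0 mM is not. GORK, TGG1 and MYB61 are not red in the 0 mM libraries of T31-5, the empty vector line and Col-0.

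Of 12 markers of root and root stele, where SLAH1, SLAH2 and SLAH3 are known to act, 2 rose and 1 fell (median 0.22), 3 of 12 passing against 29.8% of all genes tested. With T31-5 and the empty vector line summed 0 rose and 1 fell, and 0 passed without the empty vector line. Of all 20585 genes, 2778 passed in the summed fit and 2056 in the fit without the empty vector line. None was at 0 in any library. Their summed level, most of it PYK10, was 1609 to 2366 CPM at 75 mM and 1300 to 2153 CPM at 0 mM. The stele potassium channel gene SKOR fell, at -1.77 on the log2 scale, with RHD6, a root hair regulator, at 0.98 and the root glucosidase gene PYK10 at 0.57 rising. The mean log2 CPM of the list was 3.25 in T43-11, 3.20 in T31-5, 2.59 in the empty vector line and 1.70 in Col-0 at 75 mM. At 0 mM it was 3.15 in T43-11, 2.55 in T31-5, 2.77 in the empty vector line and 2.34 in Col-0. Col-0 was thus the lowest line at each salt level. It had the most SLAH2 and SLAH3 of the 4 lines at 75 mM, and the least SLAH2 and the most SLAH3 at 0 mM. The part of root tissue in the SLAH values was not tested.

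The genes most like a member were taken as those with the smallest root mean square difference in centred log2 CPM over the 8 libraries, among the 14797 genes averaging 5 CPM or more. For ALMT12 these were BCAT-1, a branched-chain amino acid transaminase gene, at 0.0769, the protein kinase gene AT4G14480 at 0.0894 and the receptor kinase gene CRK28 at 0.128. For SLAH3 they were DTX1, a MATE efflux carrier gene, at 0.104, PHI-1 at 0.116 and GASA1 at 0.139. For CLC-A they were AT2G46915, AT1G18660 and AT2G17340, at 0.0328 to 0.0384, where CLC-A itself varied by 0.286 around its mean. CLC-A ranked 1187 among these genes in its likeness to ALMT12 and 10241 in its likeness to SLAH3. SLAC1, SLAH1 and SLAH2 were below 5 CPM and were not matched.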

How the data were processed

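RNA sequencing of whole plants gave 8 libraries. The authors deposited raw counts per gene for each, and per the submitters' processing notes TopHat2 2.0.5, HTSeq and the TAIR10 build were used. The HTSeq version, its mode and its strand setting are not stated there. Summary rows (2.49 to 2.60% of reads) and 2 added rows stayed out of library sizes and tests.

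Titles gave each library's line and salt level. Both salt levels of a line are paired because they come from the same line. Lines served as replicates, and since separate plants are not documented, p-values reflect the spread among these libraries only, which may be technical. Counts were fitted in R 4.3.3 with edgeR 4.0.16 (TMM, robust quasi-likelihood test, Benjamini-Hochberg over 20585 genes reaching 0.468 CPM, or 10 reads in the median library, in at least 2 libraries, threshold 0.05) and tested on simulated data. The biological coefficient of variation was 10.2% in 3 lines and 14.5% in 4. Standard errors are the absolute log2 fold change over the square root of F. Alternatives were DESeq2 1.42.0, RLE factors, no filter, no block, lines left out and lines summed. A count of 0 allows up to 3 reads, 0.131 to 0.231 CPM, counting error only. Single-line ratios used a prior count of 2.

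Members, gene lists and tests were chosen with earlier results of these data known. Named genes are the 6 members, the list genes that passed (up to 6 per direction), list genes given as not passing, and the 3 genes most like each member above 5 CPM. Of 32678 identifiers 31912 (97.7%) matched RefSeq TAIR10.1, used for names, positions and promoter windows. The count tables hold no coordinates. Levels, intervals and plots came from Python 3.11.15 with scipy 1.17.1, matplotlib 3.10.9 and pandas 2.3.3.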

Additional observations from a re-analysis of the deposited data

Results flagged for a closer look

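ALMT12 at 0 mM was flagged because T43-11 lay far from the other lines. The gap of its log2 level to the nearest of the other 3 lines was 0.955 of the whole range of the 4 lines, above the 95% limit of Dixon's test. It had 8.20 CPM in T43-11, against 21.0 CPM in T31-5, 21.4 CPM in the empty vector line and 20.5 CPM in Col-0.

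CLC-A at 75 mM was flagged by the same test because Col-0 stood above the other lines, with a gap of 0.837 of the range. It had 214 CPM in T43-11 and 222 CPM in T31-5, with 218 CPM for the empty vector line and 271 CPM for Col-0. Each of the 6 genes was examined at both salt levels, 12 groups in all, of which chance flags about 1 in 20.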

How the results depend on the processing

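The direction of every member in the 3-line and 4-line salt fits was the same under all alternatives run. In the 3-line fit the number of genes passing was 6142, against 4053 in DESeq2 and 2778 with T31-5 and the empty vector line summed, and it ran from 2056 to 7942 with 1 line left out, the lowest without the empty vector line. Without the replicate block by line, SLAH3 (log2 1.0, adjusted p = 0.151) and CLC-A (-0.46, adjusted p = 0.0578) no longer passed in that fit, and ALMT12, SLAH1, SLAH2 and SLAC1 did. DESeq2 did not pass SLAC1 (adjusted p = 0.073). In the 4-line fit 0 genes passed, 1791 in DESeq2, and 0 to 6142 with 1 line left out, the highest without T43-11. The T43-11 test had 500 genes, 31 without the replicate block, and 1 to 2824 with 1 line left out, the lowest without the empty vector line and the highest without Col-0. A prior count of 0.5 put 1 gene past 2-fold between the T43-11 libraries, where there were 0.

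For the 3F-VP16 lines against the control lines, DESeq2 passed 28 genes over both salt levels, 18 at 75 mM and 2 in the difference in salt response, where edgeR passed 0. With 1 line left out the counts ran from 0 to 2 over both salt levels, from 0 to 173 at 0 mM and from 0 to 315 for the difference in response, the last 2 at their highest without T31-5. Member values that changed sign did so only with a line left out, and none of them passed. Their log2 ranges over both salt levels were -0.33 to 0.14 for SLAC1, -3.30 to 0.36 for SLAH1 and -0.20 to 0.26 for SLAH2. At 0 mM they were -0.40 to 0.18 for SLAC1, -4.11 to 0.38 for SLAH1, -0.54 to 0.48 for SLAH3 and -1.36 to 0.0092 for ALMT12. At 75 mM they were -0.14 to 0.30 for SLAC1, -0.51 to 0.037 for ALMT12 and -0.32 to 0.0065 for CLC-A, and for the difference in response -0.19 to 1.04 for ALMT12. The causes were not tested.

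Depth limits SLAH1 and SLAC1, with at most 27 and 100 reads in a library. With 1 library per line and salt level, technical spread and differences between lines cannot be told apart.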
